A study of Mus musculus with 12 samples.

Results

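Glycolysis and hypoxia response genes are 36 mouse genes, chosen by gene symbol. They comprise the glucose transporter and hexokinases, the enzymes from fructose 6-phosphate to pyruvate with their bisphosphate regulators, the handling of pyruvate and lactate, and Hif1a with 10 other genes of the hypoxia response. Of the 36 genes, 34 were named on the array platform, where Gpi1 and Eno1 were not named here, and 33 were bright enough to be tested. In all, 30464 genes were named and 18119 were tested. The gene that did not pass the filter, Ldhb, which makes the B subunit of lactate dehydrogenase, read 5.32 to 5.48 on all 12 arrays.

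RNA was measured in RAW264.7 cells, an established mouse macrophage-like line, on Affymetrix arrays with 1 array per sample and 3 arrays per group. Cells spent 24 h in 1 of 4 media. KO medium was conditioned by JMJD6-knockout PyMT-41C cells (replicates 1, 2 and 3), and SCR medium with CSH was conditioned by SCR PyMT-41C cells and received CSH, given in the labels as an ANXA-1 receptor blockade (replicates 1, 2 and 4). SCR medium was conditioned by SCR PyMT-41C cells (replicates 1, 3 and 4), and normal medium was RPMI with serum and no conditioned medium (replicates 2, 3 and 4). In the 3 conditioned groups the culture was 50% conditioned medium. The knockout was made in the PyMT-41C cells, whose number of clones the labels do not give, and not in the RAW264.7 cells that were measured. There was no group with CSH in normal medium and no group labelled as vehicle. The labels do not state that replicates came from separate cultures, so the spread behind each p-value is that of these samples and may be technical.

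Of 10 macrophage markers, 9 were bright enough to test and Mertk, at 5.06 to 5.10 as group means, was below the array medians. In SCR medium against normal medium 4 of the 9 fell (44.4%, beside 15.8% of all genes tested) and 3 rose (33.3%, beside 19.3%). The changes ran from -1.79 for Csf1r to 2.57 for Fcgr1 on the log2 scale. The mean of the 10 genes, which averages over these opposite changes, was 12.49 to 12.54 in KO medium, 12.40 to 12.60 in SCR medium with CSH, 12.38 to 12.51 in SCR medium and 12.41 to 12.45 in normal medium. Epithelial markers, which carried-over PyMT-41C cells could bring, had array means of 4.98 to 5.09, below the array medians of 5.4 to 5.52, and 0 of the 3 tested differed between any groups. The 3 mesenchymal markers named on the platform read 4.75 to 4.96 as array means, and none was bright enough to test. In bulk RNA, fewer cells of a kind and less RNA per cell cannot be told apart. The KO arrays were spread widely in the glycolysis and hypoxia genes, with replicate 3 low and replicate 2 high. The main results of these genes that involve KO medium are therefore also given without replicate 3, and some without replicate 2.

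Glycolysis turns glucose into pyruvate in the cytosol. Pyruvate is then reduced to lactate and exported, or enters mitochondria. There it is used by the pyruvate dehydrogenase complex, which pyruvate dehydrogenase kinases switch off. When oxygen is short, the alpha subunits of the hypoxia-inducible factors (HIF) escape prolyl hydroxylation and VHL-dependent degradation, pair with ARNT, bind hypoxia response elements and raise many glycolytic genes along with genes such as Bnip3, Adm and Ankrd37. In macrophages HIF-1 is also active during inflammatory activation at normal oxygen, and glycolysis is a main energy source of inflammatory macrophages.

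Values below are log2 RMA signals, the summary that the authors deposited, in which a difference of 1 is a 2-fold difference in signal. Levels of different genes are not compared, because probe sets differ in brightness. A gene is said to have risen or fallen only where limma, fitted across all genes tested, gave a Benjamini-Hochberg adjusted p below 0.05. SE is the standard error of the log2 change in that fit.

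The first question was how these genes differed between cells in SCR medium and cells in normal medium. Hypoxia genes moved in both directions, Pkm and several isoforms of other glycolytic enzymes fell, and Slc2a1, the hexokinases, Aldoa, Gapdh, Pgk1, Ldha and the lactate transporters did not pass the test. Of the 33 tested genes, 10 fell, 2 rose and 21 did not pass. Of all 18119 genes tested, 15.8% fell and 19.3% rose. The 30.3% of members that fell stood above the share of all genes, and the 6.06% that rose stood below it. The members were chosen with earlier results of these data known, so these shares are description only. The median log2 change of the members was -0.06, beside 0.02 for all genes tested. The arrays of SCR and normal medium did not overlap for 13 of the members, all higher for 3 and all lower for 10, while 43.3% of all genes tested were without overlap.

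**Figure D1:**
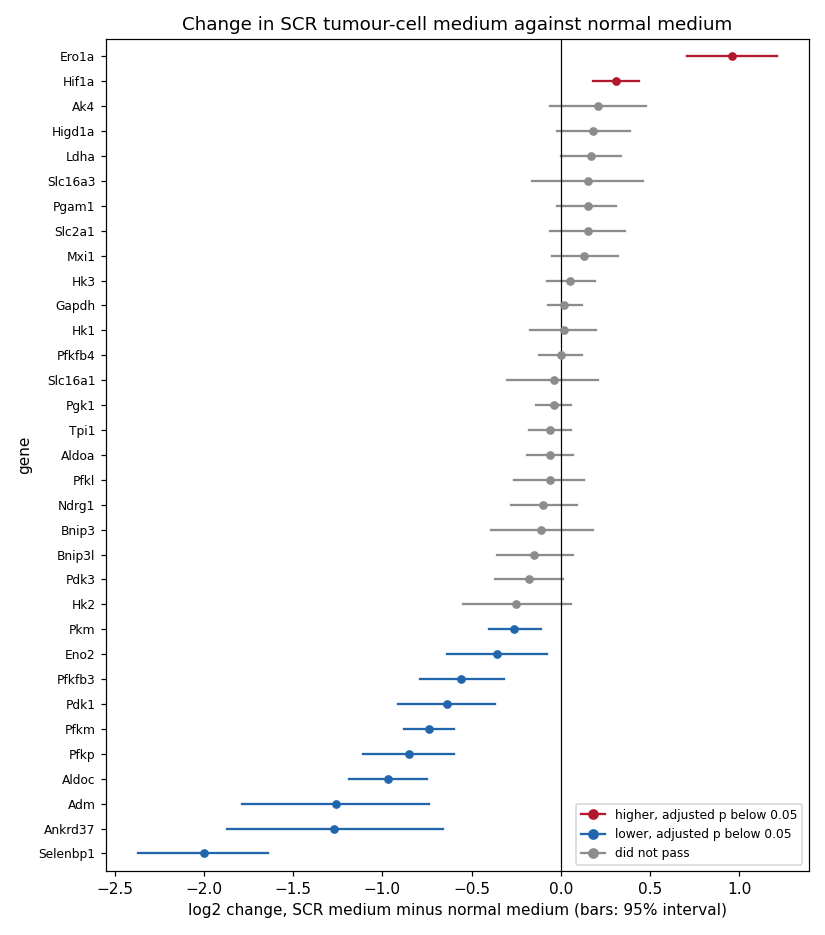
Log2 change of each of the 33 tested genes, SCR medium minus normal medium (horizontal axis), with bars for the 95% interval of the limma fit. Red marks the 2 genes that rose, blue the 10 that fell and grey the 21 that did not pass, and the falls reach -2.00 for Selenbp1 while the larger rise is 0.96 for Ero1a.

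In the hypoxia group, Ero1a and Hif1a rose, Selenbp1, Ankrd37 and Adm fell, and the other 6 genes did not pass. Upstream sequences are shown for the 3 genes with the largest falls, because all 3 hold the core of a hypoxia response element, ACGTG or GCGTG on either strand. Each sequence is the 250 bases before the listed transcript start, from RefSeq on GRCm38.p6, read 5′ to 3′ on the strand of the gene, with capitals on the core motif or its reverse complement. Matches on both strands can overlap one another.
Selenbp1, chr3:94932833-94933082, plus strand: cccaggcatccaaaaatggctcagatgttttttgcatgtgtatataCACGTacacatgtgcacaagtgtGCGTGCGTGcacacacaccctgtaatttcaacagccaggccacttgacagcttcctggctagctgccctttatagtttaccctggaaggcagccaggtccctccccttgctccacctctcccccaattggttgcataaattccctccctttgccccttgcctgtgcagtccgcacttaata
Ankrd37, chr8:45999851-46000100, minus strand: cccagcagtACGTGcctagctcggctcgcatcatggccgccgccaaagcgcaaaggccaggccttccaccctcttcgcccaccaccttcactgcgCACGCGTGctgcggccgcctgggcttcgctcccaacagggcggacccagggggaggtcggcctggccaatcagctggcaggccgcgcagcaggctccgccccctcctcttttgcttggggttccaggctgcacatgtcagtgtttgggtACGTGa
Adm, chr7:110627407-110627656, plus strand: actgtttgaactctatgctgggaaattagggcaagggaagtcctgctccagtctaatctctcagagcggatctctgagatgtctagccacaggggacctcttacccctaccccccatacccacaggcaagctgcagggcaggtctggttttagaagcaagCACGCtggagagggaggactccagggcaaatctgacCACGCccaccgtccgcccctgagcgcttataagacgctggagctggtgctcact
Selenbp1 held 3 matches, at 204, 181 and 177 bases before the start. Ankrd37 held 4 matches, at 241, 155, 152 and 6 bases before a start that lies inside the annotated span of the gene. Adm held 2 matches, at 90 and 54 bases before the start. A match to these letters was common among the members, in 31 of the 34 that the promoter table lists (91.2%). It was found for 56.5% of the 10445 listed genes that were tested on the arrays, and for 41.5% of all 27025 genes listed. These shares count a match at any listed start of a gene. Of the 32851 single promoters, 38.6% held a match. Among the members 9 of 10 genes that fell, 2 of 2 that rose and 18 of 19 that did not pass held it. Because nearly every member held a match, these counts cannot show whether a match follows the direction of change. Gpi1, Tpi1 and Eno2 held no match in this window.

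Selenbp1 (chromosome 3, 94933083 to 94944758), a methanethiol oxidase, had the largest change of the 33 genes. It read 11.04, 11.44 and 11.50 in SCR medium, against 13.65, 13.20 and 13.14 in normal medium. Every SCR array lay far below every normal array, a log2 change of -2.00 (SE 0.17, adjusted p = 1.84e-06). Mouse has a near-identical neighbouring copy, Selenbp2, and whether the probe set tells the copies apart was not tested. Ankrd37 (chromosome 8, 45996908 to 46000414), an ankyrin-repeat gene that HIF-1 induces, read 10.28, 10.64 and 10.56 in SCR medium, against 11.96, 11.65 and 11.67 in normal medium, without overlap. It fell by 1.27 on the log2 scale (SE 0.28, adjusted p = 0.00315). Adm (chromosome 7, 110627657 to 110629820), the precursor of the vasodilator peptide adrenomedullin, read 13.07, 13.37 and 13.59 in SCR medium, against 14.83, 14.46 and 14.53 in normal medium. It fell by 1.26 (SE 0.24, adjusted p = 0.00114), and the groups did not overlap.

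Ero1a (chromosome 14, 45283087 to 45318572), the oxidase that drives disulfide formation in the endoplasmic reticulum, moved the other way. It read 15.67, 15.80 and 15.97 in SCR medium, against 15.01, 14.84 and 14.71 in normal medium, all higher, with a log2 change of 0.96 (SE 0.12, adjusted p = 3.45e-05). Hif1a (chromosome 12, 73901324 to 73947554), the oxygen-regulated subunit itself, read 11.80, 11.62 and 11.70 in SCR medium, against 11.46, 11.39 and 11.35 in normal medium. Its rise was small, 0.31 (SE 0.06, adjusted p = 0.00135), yet every SCR array was above every normal array. The mitophagy receptors Bnip3 and Bnip3l had log2 changes of -0.11 and -0.15, and Ndrg1, a stress-response gene, of -0.10. The MYC antagonist Mxi1 stood at 0.13, the mitochondrial protein Higd1a at 0.18 and the adenylate kinase Ak4 at 0.21, with adjusted p of 0.156 to 0.599 for these 6 genes.

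**Figure D2:**
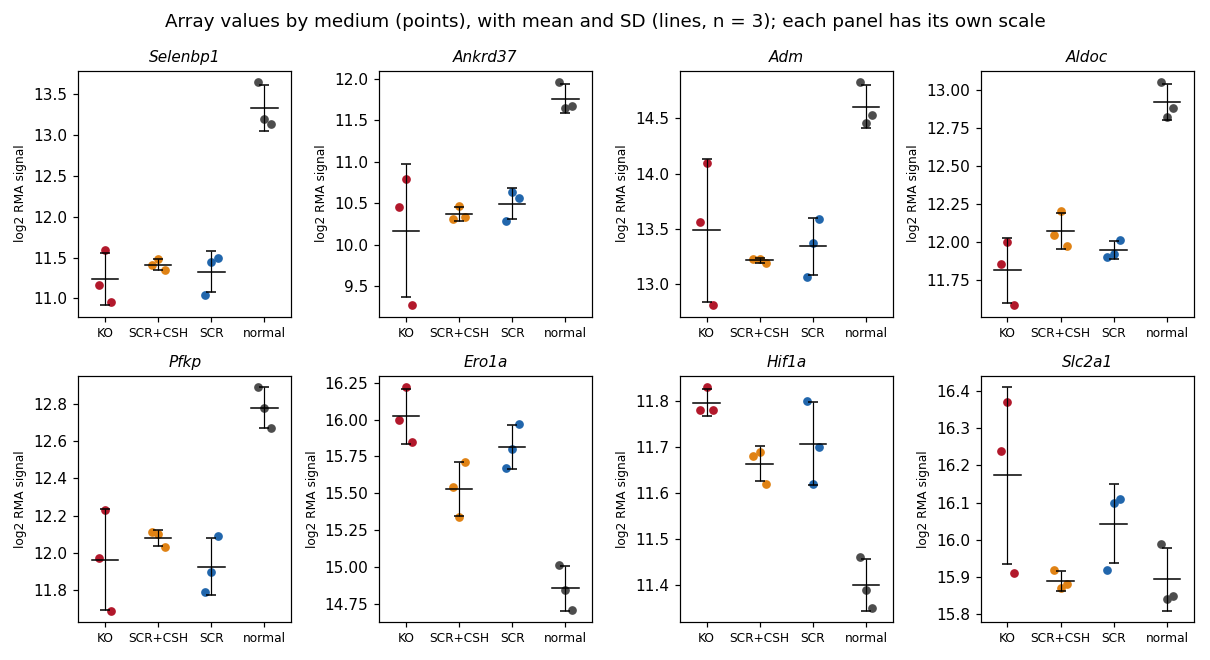
Log2 RMA signal of 8 genes on each array (points), with mean and SD (lines, n = 3), for KO medium, SCR medium with CSH, SCR medium and normal medium from left to right, each panel on its own scale. Selenbp1, Ankrd37, Adm, Aldoc and Pfkp lie lower in all 3 conditioned media than in normal medium, Ero1a and Hif1a lie higher, and Slc2a1 overlaps between SCR and normal medium.

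None of the genes for glucose uptake and phosphorylation passed the test in SCR medium against normal medium. Slc2a1 (chromosome 4, 119108745 to 119137330), which encodes the glucose transporter GLUT1, read 15.92, 16.10 and 16.11 in SCR medium, against 15.99, 15.84 and 15.85 in normal medium. The groups overlapped, with a log2 change of 0.15 and a 95% interval of -0.06 to 0.36. The hexokinases trap glucose in the cell as glucose 6-phosphate. Hk1 stood at 0.02 and Hk3 at 0.05, while Hk2, the hypoxia-inducible form, stood at -0.25 with the widest interval of the group, -0.55 to 0.06.

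In upper glycolysis, 3 of 6 tested genes fell and the other 3 did not pass. Those that fell were the isoforms Aldoc, Pfkp and Pfkm, and not the isoforms Aldoa and Pfkl. Aldoc (chromosome 11, 78323073 to 78327781), aldolase C, read 11.90, 11.92 and 12.01 in SCR medium, against 13.05, 12.82 and 12.88 in normal medium. The SCR arrays lay together and far below the normal arrays, a log2 change of -0.97 (SE 0.10, adjusted p = 9.75e-06). Aldoa, the ubiquitous aldolase, changed by -0.06 with an interval of -0.19 to 0.07, which lies apart from the interval of -1.19 to -0.75 for Aldoc. Pfkp (chromosome 13, 6579874 to 6649060), the platelet-type phosphofructokinase, read 11.79, 11.90 and 12.09 in SCR medium, against 12.89, 12.78 and 12.67 in normal medium. It fell by 0.85 (SE 0.12, adjusted p = 9.62e-05), again without overlap. The muscle type Pfkm fell by 0.74 (SE 0.07, adjusted p = 2.83e-06), to 7.32 ± 0.07 in SCR medium, against 8.06 ± 0.12 in normal medium (SD, n = 3 each). The liver type Pfkl stood at -0.06, with an interval of -0.26 to 0.13 that does not meet those of Pfkp (-1.11 to -0.60) and Pfkm (-0.88 to -0.60). The differences between isoforms were not tested beyond these intervals. Tpi1, triosephosphate isomerase, stood at -0.06.

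Of the bifunctional enzymes that set fructose 2,6-bisphosphate, the activator of phosphofructokinase, Pfkfb3 fell and Pfkfb4 did not pass. Pfkfb3 read 7.27 ± 0.10 in SCR medium and 7.82 ± 0.15 in normal medium (SD, n = 3 each), a log2 change of -0.56 (SE 0.11, adjusted p = 0.00136). Pfkfb4 stood at 0.00, with an interval of -0.12 to 0.12.

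In lower glycolysis, Pkm and Eno2 fell, both by less than the genes above, and Gapdh, Pgk1 and Pgam1 did not pass. Pkm, the pyruvate kinase of macrophages, read 16.05 ± 0.05 in SCR medium and 16.31 ± 0.08 in normal medium, a log2 change of -0.26 (SE 0.07, adjusted p = 0.00912). Eno2, the neuron-type enolase, read 11.33 ± 0.08 in SCR medium and 11.69 ± 0.10 in normal medium (SD, n = 3 each). Its change of -0.36 (SE 0.13) had an adjusted p of 0.0442 that left-out arrays readily moved. The call held without KO replicate 2 or 3, and was lost at adjusted p of 0.0509 to 0.15 without each of the other 10 arrays (KO replicate 1 and every array of the 3 other media). Gapdh, glyceraldehyde-3-phosphate dehydrogenase, stood at 0.02 with an interval of -0.07 to 0.12, the narrowest of the 33 genes. Pgk1, phosphoglycerate kinase, stood at -0.04 and Pgam1, phosphoglycerate mutase, at 0.15. Glycolytic genes have many processed pseudogenes, and the Gapdh probe set carries a second gene number, so the identity of their signal is uncertain.

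In the handling of pyruvate and lactate, Pdk1 fell and 4 genes did not pass. Pdk1, the hypoxia-inducible kinase that inactivates pyruvate dehydrogenase, read 9.00 ± 0.15 in SCR medium and 9.64 ± 0.15 in normal medium (SD, n = 3 each). Its change was -0.64 (SE 0.13, adjusted p = 0.00142). Ldha, the lactate dehydrogenase subunit that favours lactate, read 13.40, 13.41 and 13.52 in SCR medium, against 13.39, 13.17 and 13.25 in normal medium. The groups were narrowly apart, but the change of 0.17 missed the threshold (adjusted p = 0.113). The lactate transporters Slc16a1 and Slc16a3 stood at -0.04 and 0.15, and the kinase Pdk3 at -0.18.

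**Figure D3:**
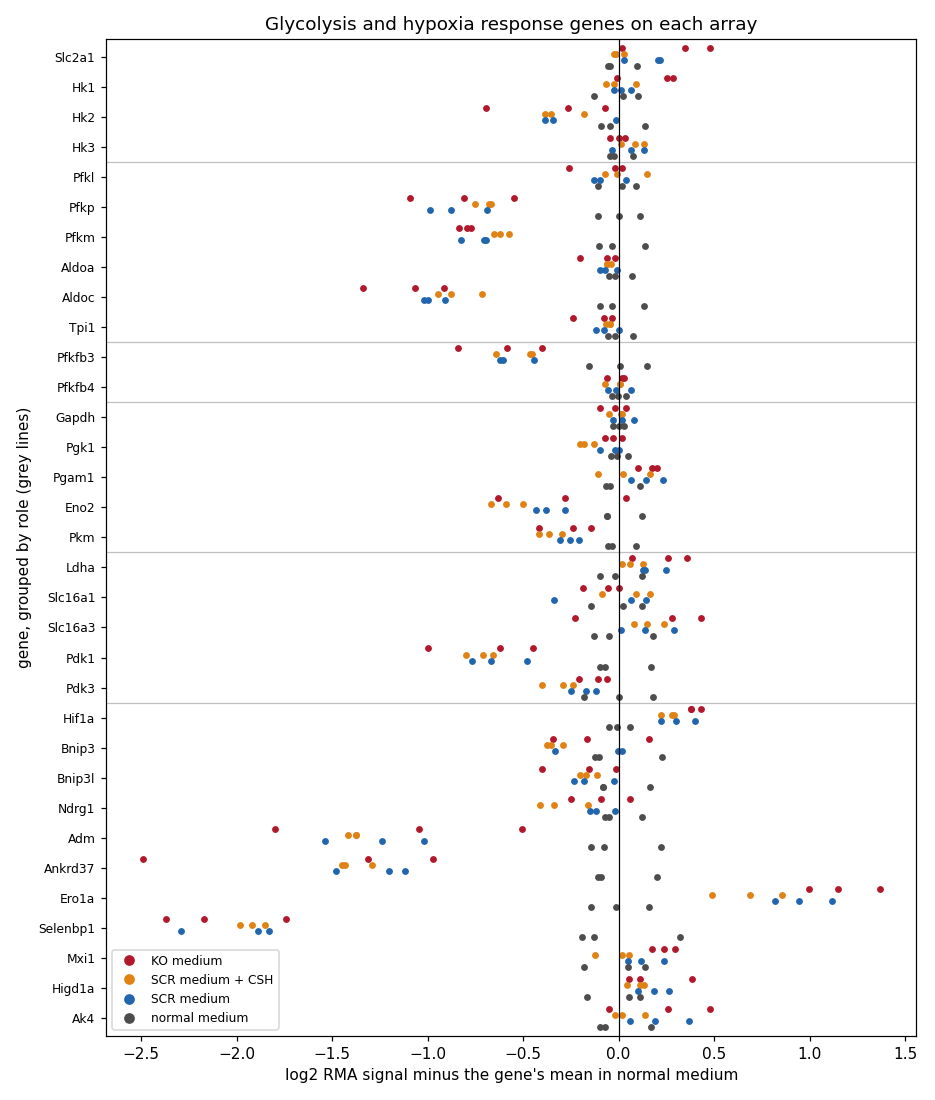
Log2 RMA signal of each gene on each array minus the mean of that gene in normal medium (horizontal axis), with genes down the page in the order of their roles and colours for the 4 media. The conditioned media lie left of the normal arrays for Pfkp, Pfkm, Aldoc, Pfkfb3, Pdk1, Adm, Ankrd37 and Selenbp1 and right of them for Hif1a and Ero1a, and the KO arrays of Adm and Ankrd37 spread widely.

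The second question was whether knockout of JMJD6 in the cells that conditioned the medium altered these genes, with KO medium set against SCR medium. No member passed the test in limma. Counts were 0 of 33 at an adjusted p below 0.05 and also 0 at an unadjusted p below 0.05, where 5.95% of all genes stood, and the smallest adjusted p was 0.918. Of all genes tested, 0.254% rose and 0.0166% fell. The median log2 change was -0.01, beside -0.00 for all genes tested, and it ran from -0.077 to 0.078 as arrays were left out in turn. Single genes ran from -0.32 for Ankrd37 to 0.21 for Ero1a. The 95% intervals bound what the arrays could have missed, and reach -0.93 for Ankrd37 and 0.67 for Adm, while that of Gapdh ends at -0.15 and 0.05. No member had all KO arrays on 1 side of all SCR arrays, while 9.37% of all genes tested did.

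Ero1a read 16.00, 16.22 and 15.85 in KO medium, against 15.67, 15.80 and 15.97 in SCR medium, with overlap. Slc2a1 read 16.24, 16.37 and 15.91 in KO medium, against 15.92, 16.10 and 16.11 in SCR medium, where KO replicate 3 lay below every SCR array. Hif1a read 11.78, 11.83 and 11.78 in KO medium, against 11.80, 11.62 and 11.70 in SCR medium, again with overlap. Without KO replicate 3, still no member passed. Slc2a1 then stood at 0.26 (adjusted p = 0.385), Ero1a at 0.30 (adjusted p = 0.848), Adm at 0.49 (adjusted p = 0.659) and Ankrd37 at 0.13, in place of -0.32. Leaving out KO replicate 2 instead moved these genes the other way, and again no member passed. Slc2a1 then stood at 0.03, Ero1a at 0.11, Adm at -0.16 and Ankrd37 at -0.63.

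The third question was whether CSH altered these genes in SCR medium, with SCR medium with CSH set against SCR medium alone. No member passed the limma test, and no gene did among all 18119 (0.0%). At an unadjusted p below 0.05 there were 3 members, all lower, beside 6.24% of all genes tested. These were Pgk1 at -0.13, Ndrg1 at -0.21 and Ero1a at -0.28, and the smallest adjusted p of any member was 0.751. The median log2 change was -0.06, beside 0.01 for all genes, or -0.003 without SCR replicate 4, with single genes from -0.28 to 0.15 and interval bounds from -0.73 to 0.48. Of the hypoxia genes 10 of 11 had a negative change and of the upper glycolysis genes 6 of 6 a positive one (0.01 to 0.15), none of which passed. Such counts of signs are not independent, because the genes share arrays. SCR replicate 4 was the highest SCR array for 9 of the 11 hypoxia genes and 5 of the 6 upper glycolysis genes. The arrays did not overlap for 4 members, 1 higher and 3 lower with CSH, beside 8.59% of all genes. This comparison and that of KO medium use the same SCR arrays.

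Hif1a read 11.68, 11.69 and 11.62 in SCR medium with CSH, against 11.80, 11.62 and 11.70 in SCR medium. Slc2a1 read 15.92, 15.87 and 15.88 with CSH, against 15.92, 16.10 and 16.11 in SCR medium, and the groups met at 15.92. Ero1a read 15.54, 15.34 and 15.71 with CSH, against 15.67, 15.80 and 15.97 in SCR medium, so that 1 CSH array lay among the SCR arrays.

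**Figure D4:**
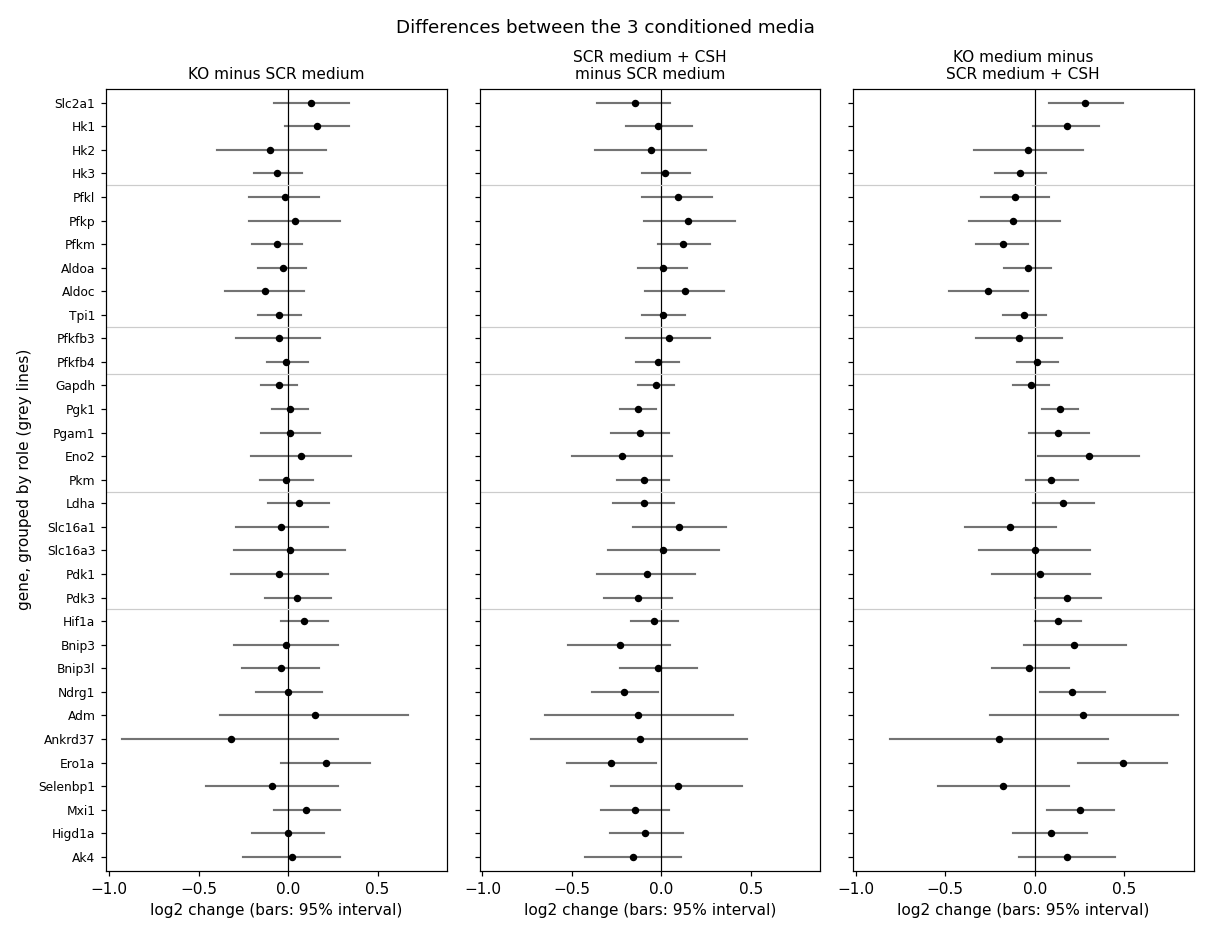
Log2 change of each of the 33 genes with its 95% interval (bars), for KO minus SCR medium, SCR medium with CSH minus SCR medium, and KO medium minus SCR medium with CSH, from left to right. No gene passed the adjusted threshold in any panel, and the widest intervals belong to Adm and Ankrd37.

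KO medium and SCR medium with CSH were next each set against normal medium, whose arrays these comparisons and the first share. In KO medium 9 members fell and 5 rose, beside 17.6% of all genes that fell and 21.4% that rose, and the rises numbered 2 without KO replicate 1 or 2 or normal replicate 3 or 4, and 7 without KO replicate 3. In SCR medium with CSH 13 members fell and 2 rose, beside 14.9% and 20.9% of all genes. Arrays did not overlap with those of normal medium for 12 members in KO medium (49.8% of all genes) and 18 with CSH (46.8% of all genes). Selenbp1 read 11.16, 11.59 and 10.96 in KO medium and 11.41, 11.48 and 11.35 with CSH, all below the normal arrays, with log2 changes of -2.09 and -1.92 against normal medium. Ankrd37 had log2 changes of -1.59 in KO medium and -1.39 in SCR medium with CSH, Adm at -1.12 and -1.39, Aldoc at -1.11 and -0.85, and Pfkp at -0.82 and -0.70. Each of these 10 changes passed. Pfkm, Pfkfb3, Pdk1 and Pkm also fell in both media, by 0.27 to 0.80 on the log2 scale. Ero1a rose by 1.17 in KO medium and by 0.68 with CSH, and Hif1a rose by 0.40 and 0.26. Without KO replicate 3 all 11 of these genes still passed in KO medium, but Ankrd37 stood at -1.14 and Adm at -0.78. Selenbp1 then stood at -1.96, Aldoc at -0.99, Pfkp at -0.68, Ero1a at 1.26 and Hif1a at 0.40, and the other 4 at -0.78 to -0.19. Without KO replicate 2, Ankrd37 stood at -1.90 and Adm at -1.42.

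Genes called in some but not all of the comparisons with normal medium rested on small changes, apart from Eno2 with CSH. In KO medium Slc2a1 rose by 0.28 (SE 0.10, adjusted p = 0.0339), Ldha by 0.23 (SE 0.08, adjusted p = 0.0343) and Mxi1 by 0.24 (SE 0.09, adjusted p = 0.0446), while Eno2 at -0.29 did not pass (adjusted p = 0.0974). The Slc2a1 call was lost without KO replicate 1 (adjusted p = 0.107) or 2 (0.154) or normal replicate 3 (0.0981) or 4 (0.0967), and that of Ldha without the same arrays (0.0961, 0.151, 0.131 and 0.0878 as adjusted p). The Mxi1 call was lost without any KO array (adjusted p = 0.0573 to 0.134), normal replicate 3 (0.0602) or 4 (0.195), SCR replicate 1 (0.0531) or CSH replicate 1 (0.0556). Eno2 passed without KO replicate 2 (adjusted p = 0.00466), as did Hk2 at -0.48 (adjusted p = 0.018), in place of -0.34. Without KO replicate 3, Slc2a1 stood at 0.41 (adjusted p = 0.000634), and Hk1 (0.27), Slc16a3 (0.35) and Ak4 (0.37) passed as well, at adjusted p of 0.018, 0.0219 and 0.0219.

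With CSH, Eno2 fell by 0.59 (SE 0.13, adjusted p = 0.00316), Pdk3 by 0.31 (SE 0.09, adjusted p = 0.0133), Ndrg1 by 0.30 (SE 0.08, adjusted p = 0.0132) and Pgk1 by 0.17 (SE 0.05, adjusted p = 0.0114). The Eno2 call held as each array was left out, at adjusted p up to 0.0167. Without normal replicate 2 the calls of Pdk3 (adjusted p = 0.064), Ndrg1 (0.0628) and Pgk1 (0.053) were lost, and without CSH replicate 2 those of Pdk3 (0.0542) and Ndrg1 (0.0558). Bnip3 at -0.34 did not pass (adjusted p = 0.0618), but did without KO replicate 2 or 3 or SCR replicate 1, at adjusted p down to 0.0325. Hk2 at -0.31 passed without KO replicate 3 alone (adjusted p = 0.0409). Slc2a1 with CSH stood at -0.00 against normal medium, with an interval of -0.21 to 0.20.

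KO medium and SCR medium with CSH were also set against each other. No member passed, beside 1.21% of all genes that were higher and 0.695% lower in KO medium, but 9 members had an unadjusted p below 0.05 (27.3%), beside 15.7% of all genes tested. Ero1a came nearest, at 16.00, 16.22 and 15.85 in KO medium, against 15.54, 15.34 and 15.71 in SCR medium with CSH. All KO arrays were higher, with a log2 change of 0.49 (SE 0.12, adjusted p = 0.0521), and the call passed without CSH replicate 4 (adjusted p = 0.0443). The median of the members was 0.03, or 0.162 without KO replicate 3. Slc2a1 stood at 0.28 (adjusted p = 0.175) and passed without KO replicate 3, at 0.41 (adjusted p = 0.0201). It did not pass without KO replicate 2, at 0.18. The arrays did not overlap for 6 members, 5 higher and 1 lower in KO medium, while 21.8% of all genes were without overlap. Those higher were Pgk1 (0.14), Pdk3 (0.18), Hif1a (0.13), Ero1a and Mxi1 (0.25), and Pfkm (-0.18) was lower.

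In KO, SCR and normal medium, but not with CSH, most of the genes were highest on the same array. In KO medium, replicate 2 was the highest array for 31 of the 33 genes and replicate 3 the lowest for 30, while over all genes tested replicate 2 was highest for 24.4% and replicate 3 lowest for 31.0%. The median deviation of the 33 genes from their KO mean was 0.03, 0.15 and -0.17 in replicates 1, 2 and 3. Ankrd37 read 10.45, 10.79 and 9.27 on the KO arrays, a range of 1.52. Adm read 13.56, 14.10 and 12.81, so KO replicate 3 was below every SCR array for both genes. The roles shared this order but for the bisphosphate regulators. KO replicate 2 was highest for 4 of 4 genes of glucose uptake, 6 of 6 of upper glycolysis, 5 of 5 of lower glycolysis, 4 of 5 of pyruvate and lactate and 11 of 11 hypoxia genes, and for 1 of 2 bisphosphate regulators.

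In normal medium replicate 2 was the highest array for 31 of the 33 genes, beside 37.9% of all genes tested, and in SCR medium replicate 4 was highest for 27, beside 23.0%. In SCR medium with CSH no array led in this way, with replicates 1, 2 and 4 highest for 15, 9 and 6 genes. The median SD within KO medium was 0.159 for the 33 genes and 0.072 for all genes tested. It was 0.065 and 0.081 with CSH, 0.090 and 0.095 in SCR medium, and 0.119 and 0.081 in normal medium. These counts describe the 12 arrays, since genes of 1 array are not independent.

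**Figure D5:**
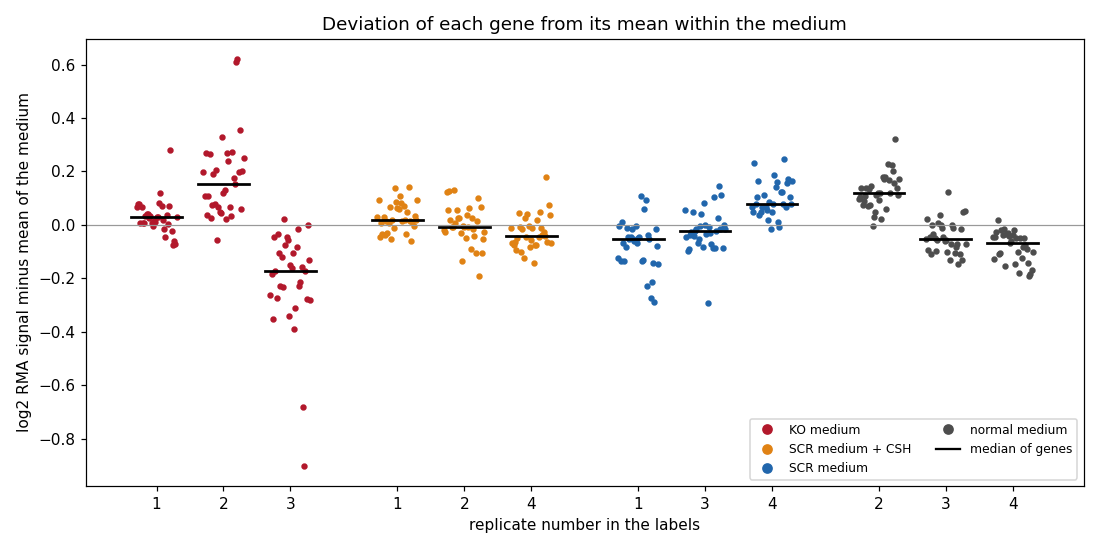
Deviation of each of the 33 genes from its mean within the medium (points, log2 RMA signal), for each array by the replicate number in its label, with lines for the median of the genes. KO replicate 2 and normal replicate 2 lie mostly above 0 and KO replicate 3 mostly below it, with medians of 0.15, 0.12 and -0.17.

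Proliferation genes, given as a list of 12 of which 11 were named and tested, moved with the comparison of SCR and normal medium. Of these 9 fell (81.8%, beside 15.8% of all genes) and 2 rose (18.2%, beside 19.3%). The list mean was 9.86 to 10.04 in SCR medium and 10.78 to 11.15 in normal medium. The centromere protein gene Cenpf, the proliferation marker Mki67 and the mitotic checkpoint kinase Bub1 had log2 changes of -2.10, -1.96 and -1.38. KO replicate 3 was the lowest KO array for 9 of the 11, as for most of the glycolysis and hypoxia genes. In the other media the arrays ran otherwise, since normal replicate 2 was highest for 0 and normal replicate 3 for 11 of the 11, and SCR replicate 4 was highest for 1 and lowest for 7. Their part in the results for the glycolysis and hypoxia genes was not tested.

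Neighbouring parts of metabolism were described with lists of genes outside the 36. The lists were chosen with earlier results of these data known, so their shares beside those of all genes are description only. Of the other glycolysis, gluconeogenesis and glycogen genes, 24 of 28 were named and 19 tested, and in SCR medium against normal medium 7 fell (36.8%, beside 15.8% of all genes) and 3 rose (15.8%, beside 19.3%), with a median of -0.02. The sugar transporter Slc2a6 fell by 1.36 (SE 0.13, adjusted p = 3.46e-06), the muscle-type enolase Eno3 by 0.63 and the glycogen phosphorylase Pygb by 0.46. Slc2a6 read 8.83, 8.69 and 8.82 in SCR medium, against 10.22, 10.12 and 10.09 in normal medium, far apart. Without normal replicate 3 or 4 the count of rises in this list was 1. In the pentose phosphate pathway, 9 of 11 genes were named and 8 tested. Ribokinase Rbks rose by 1.30, the epimerase Rpe rose by 1.04 and sedoheptulokinase Shpk fell by 0.29, and the other 5 did not pass. Rises made up 25% and falls 12.5% of the 8, beside 19.3% and 15.8% of all genes. Of the genes of mitochondrial pyruvate entry and use, 12 of 13 were named and 11 tested. Of the 11, 5 rose (45.5%, beside 19.3% of all genes) and 4 fell (36.4%, beside 15.8%). The rises numbered 3 without normal replicate 4 or SCR replicate 1, and the falls 2 without normal replicate 2. In this list Dld, the dihydrolipoamide dehydrogenase subunit, rose by 0.50, Pdpr, a regulatory subunit of pyruvate dehydrogenase phosphatase, fell by 0.43, and the kinase Pdk2 fell by 0.32.

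In the list of HIF subunits and regulators other than Hif1a, 15 of 16 genes were named and 12 tested. In SCR medium against normal medium 10 rose (83.3%, beside 19.3% of all genes) and 1 fell (8.33%, beside 15.8%), with a median of 0.32. Arnt was the only subunit among the 12, since Epas1, Hif3a and Arnt2 were not bright enough to test. Cul2, the scaffold of the VHL ubiquitin ligase, rose by 1.13 (SE 0.11, adjusted p = 5.45e-06), Elob, an adaptor of that ligase, by 0.62 and the ubiquitin ligase Siah1a by 0.54. The gene that fell was Egln3, a prolyl hydroxylase that HIF itself induces, by 0.60 (SE 0.15, adjusted p = 0.00786). It is named after its value was seen. It read 10.59, 10.89 and 10.81 in SCR medium, against 11.66, 11.18 and 11.26 in normal medium, without overlap.

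Other hypoxia-responsive genes, 37 of 39 named and 34 tested, had 10 higher (29.4%, beside 19.3% of all genes) and 4 lower (11.8%, beside 15.8%) in SCR medium against normal medium and a median of -0.00. The endothelial growth factor Vegfa rose by 1.32 (SE 0.07, adjusted p = 4.4e-08), the lipid-droplet protein Hilpda by 1.39 and the chaperone Hspa5, also a gene of the unfolded protein response, by 1.58. Vegfa read 13.98, 14.07 and 14.24 in SCR medium, against 12.88, 12.71 and 12.74 in normal medium, in the direction opposite to Adm and Ankrd37 on the same arrays. Egln1, Egln3, Gbe1 and Pgm1 each stand in 2 of these lists.

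In KO medium against SCR medium 3 of the 34 other hypoxia-responsive genes rose (8.82%, beside 0.254% of all genes). The list was chosen with earlier results of these data known, so these shares are description and not a test of hypoxia genes. Of the genes of the other 4 lists, 0 passed in either direction. Arginase Arg1 rose by 1.09 (SE 0.13, adjusted p = 0.00361), the mTORC1 inhibitor Ddit4 by 0.61 (SE 0.10, adjusted p = 0.0263) and Vegfa by 0.39 (SE 0.07, adjusted p = 0.0332). Ddit4 read 7.94, 7.91 and 7.85 in KO medium, against 7.28, 7.23 and 7.36 in SCR medium, all higher. The Arg1 call held as each array was left out, at adjusted p up to 0.0185. That of Ddit4 was lost without each KO array and each SCR array (adjusted p up to 0.135), and that of Vegfa without each KO array, SCR replicate 1 or 3, CSH replicate 1 or 2 or normal replicate 4 (up to 0.149). With CSH against SCR medium, 0 genes of the 5 lists passed. Against SCR medium with CSH, Arg1 (1.39), Vegfa (0.58), Hilpda (0.56) and Ddit4 (0.63) were higher in KO medium (11.8% of their list, beside 1.21% of all genes). Slc2a6 (-0.55, adjusted p = 0.0449) was lower in KO medium (5.26% of its list, beside 0.695% of all genes). The call of Slc2a6 held without CSH replicate 4 and was lost without each of the other 11 arrays, at adjusted p up to 0.152.

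The spread of the KO arrays did not extend to all hypoxia genes. Vegfa read 14.48, 14.49 and 14.49 and Hilpda 14.99, 15.06 and 15.03 on KO replicates 1, 2 and 3, where Ankrd37 spread over 1.52 and Adm from 12.81 to 14.10. Egln3 was spread in the same order as the members, at 10.74, 11.11 and 10.47. Of the 34 other hypoxia-responsive genes, KO replicate 2 was highest for 20 and replicate 3 lowest for 23. Of the 19 other glycolysis, gluconeogenesis and glycogen genes, replicate 2 was highest for 10 and replicate 3 lowest for 12. In the list of HIF subunits and regulators these counts were 4 and 5 of 12. In the pentose phosphate pathway they were 0 and 4 of 8, and for mitochondrial pyruvate entry and use 1 and 4 of 11.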

How the data were processed

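Expression was measured in RAW264.7 cells in 4 media, on 3 arrays each. The authors deposited log2 RMA signals per probe set. The submitters' processing notes name RMA, Affymetrix Expression Console and mm10, with versions not given in the sources used here. Because RMA puts all arrays on the same scale, a change in total RNA would not show, and changes of dim genes are compressed. The number of arrays limits the precision. No 2 arrays were duplicates.

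Probe sets were named by the platform table, with symbols updated through RefSeq on GRCm38.p6. The table held 65528 probe sets: 31018 with 1 gene symbol, 1478 with several, from which no gene was named, and 33032 with none listed here. For the 439 genes on more than 1 probe set, such as Pgk1 and Mxi1, the brightest on average was used. Genes that exceeded the array median on 3 or more arrays entered a limma 3.58.1 fit in R 4.3.3 (group as the one term, all 12 arrays, trended eBayes, residual df 8, median residual SD 0.096). Adjusted p-values are Benjamini-Hochberg over 18119 genes. In simulated data of that size for KO against SCR medium, 89 of 100 genes changed by 0.58 and 96 of 100 changed by 1 on the log2 scale were called, with 8 false calls. The simulated noise was independent between genes, with 1 SD per gene for all media. The members moved together by array, and their median SD in KO medium was 0.159, beside 0.072 for all genes tested. These recovery rates therefore need not hold for the members.

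The members and the lists were chosen with earlier results of these data known. Array values were given for the 5 largest called changes in each direction in SCR against normal medium and for Hif1a and Slc2a1, and up to 3 genes with the smallest p were named per list. Ldha, Pgk1 and others beyond this rule are named as members. Replicate numbers were not treated as pairs. Alternatives were other filters, quantile normalization, median centring, no intensity trend, array weights, the replicate number as a block, the 6 arrays of a comparison alone, the average over a gene's probe sets, and each array left out. Python 3.11.15 with matplotlib 3.10.9 drew the figures.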

Additional observations from a re-analysis of the deposited data

How the results depend on the processing

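Under the alternatives, no member changed direction with either value past the threshold. In SCR medium against normal medium the members that rose numbered 2, or 7 with array weights, a fit with a convergence warning, which gave SCR replicate 4 a weight of 6.14 and the other arrays 0.39 to 1.5. In KO medium against normal medium the rises numbered 5, but 2 with no filter on low values, 3 with median centring, 2 with the 6 arrays of the comparison alone, and 2 to 7 with an array left out. In KO medium against SCR medium with CSH they numbered 0, but 1 with the stricter filter, 2 with quantile normalization, 1 with array weights, and 0 to 1 with an array left out. The median member change there was 0.033, with a range of -0.032 to 0.162 over arrays left out. For SCR medium with CSH against SCR medium it was -0.060, and -0.139 with array weights, -0.129 with the replicate block and -0.1 to -0.003 with an array left out. The labels do not say what the replicate numbers share. Deviations from the group means correlated at -0.07 to 0.29 over 12 pairs of arrays with the same number (5 above 0.1, among them all 3 pairs numbered 1), and at -0.23 to 0.21 over 42 pairs with different numbers. The replicate block left 9 falls and 2 rises in SCR medium against normal medium. Against normal medium it lost the calls of Eno2 in SCR medium (adjusted p = 0.0816) and Mxi1 in KO medium (0.0941), and added Hk2 in KO medium (0.046) and with CSH (0.0289).

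Among the wider lists in SCR medium against normal medium, the rises in other glycolysis, gluconeogenesis and glycogen were 3, but 1 with no filter, with median centring, with the replicate block and with 6 arrays alone, and 1 to 3 with an array left out. Of the genes of mitochondrial pyruvate entry and use, 4 fell, or 2 with 6 arrays alone and 2 to 4 with an array left out. Those that rose were 5, or 3 to 6 with an array left out. Other hypoxia-responsive genes that rose in KO medium against SCR medium were 3, 1 with no filter and 1 to 3 with an array left out. Over all genes tested, KO medium against SCR medium gave 46 rises and 3 falls, 220 and 156 with array weights, 30 and 9 with the replicate block, 33 and 0 with no filter, 34 and 0 with median centring, 19 and 2 with 6 arrays alone, and 19 to 25 rises and 0 to 2 falls without KO replicate 1 or 3 or any SCR array. SCR medium with CSH against SCR medium gave 0, but 55 rises and 24 falls with array weights and 1 rise with the stricter filter. KO medium against SCR medium with CSH gave 219 higher and 126 lower, 120 and 34 with median centring, 141 and 69 with no filter, 387 higher with quantile normalization, 368 and 286 with array weights, 121 higher with the replicate block, 110 and 58 with 6 arrays alone, 82 to 119 higher without any KO array or CSH replicate 2 or 4, and 25 to 83 lower without any KO array, CSH replicate 2 or SCR replicate 4. The cause of these shifts was not tested. The calls of Slc2a1, Ldha and Mxi1 in KO medium against normal medium hung on single arrays, while that of Pkm, a change of like size, held as each array was left out.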
